A study of Mus musculus with 6 samples.

Results

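The Toll-like receptors Tlr1 to Tlr9 and their adaptor Myd88 were examined in endothelial cells sorted from mouse small intestine. These 10 genes, of 22911 genes named on the array, were chosen by name, and every probe whose RefSeq accession mapped to one of them was kept, which gave 15 of 56605 probes. The blood vascular endothelial cells (VECs) were CD45- CD31+ CD90- and the lymphatic endothelial cells (LECs) were CD45- CD31+ CD90+. Each population was represented by 3 one-color Agilent arrays, numbered VEC 2, 3 and 4 and LEC 6, 7 and 8. The labels give female mice, small intestine and up to 10000 sorted cells per sample, name no treatment, and do not state the age or strain of the mice used for the arrays. Samples were grouped by their titles and source names, since the free-text description of every LEC sample speaks of VECs. No source states whether different mice supplied the samples, so the p-values measure the spread between these samples, which may be technical.

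The sorted populations carried the transcripts of their labels. All 5 lymphatic markers, among them Prox1, Lyve1 and Pdpn, were higher in LECs, with a summed signal of 1.43 to 1.66 times the array's 75th percentile on the VEC arrays and 411 to 426 times on the LEC arrays. All 5 blood vascular markers, among them Flt1 and Plvap, were lower in LECs, at 1385 to 1513 times on the VEC arrays and 32.5 to 43.5 times on the LEC arrays. All arrays lay on 1 slide scanned on 1 day, and 30930 to 35510 probes per array were detected, that is, marked by the scanner software as well above background.

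Toll-like receptors are pattern recognition receptors that bind conserved microbial molecules. TLR2 with TLR1 or TLR6 recognizes lipoproteins, TLR4 recognizes lipopolysaccharide and TLR5 flagellin at the cell surface, whereas TLR3, TLR7, TLR8 and TLR9 recognize nucleic acids inside endosomes. With the exception of TLR3, which uses TRIF (Ticam1), these receptors signal through MYD88 to NF-κB, and intestinal endothelium lies beneath an epithelium that faces a dense microbiota.

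The sequences upstream of the start sites were read for 3 short motifs that are bound by transcription factors. RefSeq windows of the GRCm38.p6 build covered 8 of the 10 genes, with 10 windows, and the 250 bases before the start were searched on both strands for a κB motif (GGG and CC with 5 bases of any kind between them), an interferon-stimulated response element core (GAAA and GAAA with 2 bases between them) and a PU.1 core (GAGGAA). These letters were present in 45.8%, 2.98% and 23.3%, respectively, of 32851 windows of the same length. Tlr4 and Tlr7 had no window. The windows of Myd88, Tlr2, Tlr3 and Tlr6, the genes with the largest differences among those with a window together with the only member that was higher in LECs, are printed 5′ to 3′, with the matches in capitals.
Myd88, chr9:119340019-119340268, minus strand: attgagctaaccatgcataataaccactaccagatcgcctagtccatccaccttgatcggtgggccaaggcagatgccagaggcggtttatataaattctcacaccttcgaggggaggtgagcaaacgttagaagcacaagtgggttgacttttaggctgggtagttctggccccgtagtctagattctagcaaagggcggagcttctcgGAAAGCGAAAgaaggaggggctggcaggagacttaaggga
Tlr2, chr3:83841609-83841858, minus strand: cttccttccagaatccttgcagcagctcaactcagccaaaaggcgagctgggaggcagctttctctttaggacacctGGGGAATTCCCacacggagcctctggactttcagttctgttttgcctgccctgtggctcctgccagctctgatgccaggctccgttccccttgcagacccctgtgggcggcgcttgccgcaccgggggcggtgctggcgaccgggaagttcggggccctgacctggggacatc
Tlr3, chr8:45410381-45410630, minus strand: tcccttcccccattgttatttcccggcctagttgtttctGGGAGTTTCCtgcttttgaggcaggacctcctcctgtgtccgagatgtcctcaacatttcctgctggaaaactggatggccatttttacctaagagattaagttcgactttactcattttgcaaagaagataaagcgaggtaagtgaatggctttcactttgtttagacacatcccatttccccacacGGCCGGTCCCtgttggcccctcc
Tlr6, chr5:64959167-64959416, minus strand: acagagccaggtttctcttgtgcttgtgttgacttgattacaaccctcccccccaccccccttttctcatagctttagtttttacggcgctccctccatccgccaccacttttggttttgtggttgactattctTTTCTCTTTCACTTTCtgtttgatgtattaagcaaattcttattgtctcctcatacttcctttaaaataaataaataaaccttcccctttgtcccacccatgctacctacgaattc
Tlr6, chr5:64960049-64960298, minus strand: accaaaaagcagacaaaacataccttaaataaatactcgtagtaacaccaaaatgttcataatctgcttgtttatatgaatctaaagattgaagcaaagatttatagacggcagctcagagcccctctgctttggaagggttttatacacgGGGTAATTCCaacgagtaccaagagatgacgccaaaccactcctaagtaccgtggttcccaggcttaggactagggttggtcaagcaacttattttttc
In the Myd88 window, the response element core lay at position -40, counted from the start site. In the Tlr2 window, 3 overlapping κB matches, on either strand, began at -173 and -172. The Tlr3 window held κB matches at -211 and -23. The first Tlr6 window held overlapping response element cores at -116 and -110, and the second held a κB match at -99. Both Tlr6 windows lay inside the span of the gene (chr5:64953092-64970942), and the Tlr3 window inside that of Tlr3 (chr8:45395665-45411075). The Tlr2 window lay partly inside its gene (chr3:83836272-83841824). The start sites of these windows were therefore not the outermost ends of the genes. Among the windows not printed, Tlr5 had a κB match at -20, and Tlr1, Tlr8 and Tlr9 had PU.1 cores at -23, -77 and -112. A match describes the letters of the window and not a bound site.

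Expression of the 10 genes was compared between LECs and VECs. Signals were log2 intensities relative to the 75th percentile of their own array, differences are LEC minus VEC on this log2 scale, and a gene was called at a limma adjusted p under 0.05. Only probes detected on all 3 VEC or all 3 LEC arrays were tested, which left 8 of the 15 probes and 7 of the 10 genes. Myd88, Tlr2, Tlr4, Tlr6, Tlr7 and Tlr9 were lower in LECs and Tlr3 was higher, whereas Tlr1, Tlr5 and Tlr8 were not tested. The comparison was broad: 66.9% of all 14971 named genes tested were called, 34.9% of them as higher and 32.0% as lower in LECs, and 71.4% of all probes tested had groups that did not overlap. The groups did not overlap for any of the 8 member probes tested. Tlr4 entered the test only through the VEC arrays, so that a count over the tested genes includes a gene whose selection favored a difference. The median difference of the 7 tested genes was -0.98, against 0.02 over all named genes. Of the 7, 3 were called and differed by more than 2-fold, namely Tlr4, Myd88 and Tlr2, compared with 25.1% of all named genes tested. Larger differences than that of Myd88 were found in 13.9% of named genes and than that of Tlr2 in 23.5%. In bulk samples such as these, fewer cells of a type and less RNA per cell cannot be told apart.

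**Figure D1:**
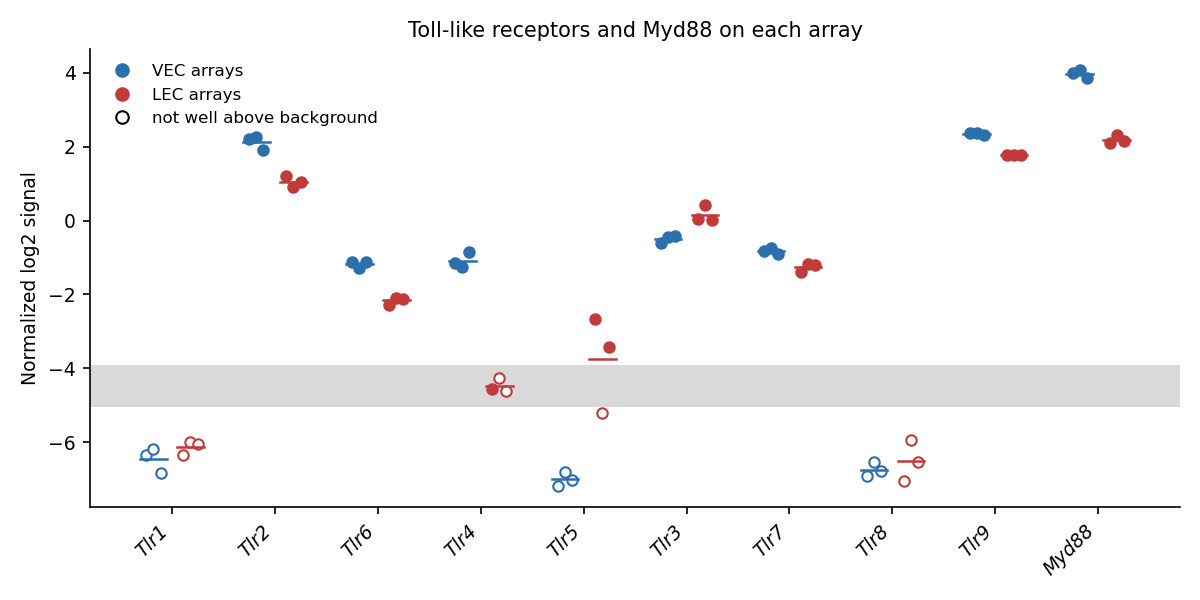
Normalized log2 signal of the probe that stands for each gene on each array (vertical axis, relative to the array's 75th percentile), with VEC arrays in blue, LEC arrays in red, lines at the group means, open points where the probe was not detected and a gray band over the lowest detected signals of the 6 arrays. The VEC and LEC means of Myd88 were 3.98 and 2.19, Tlr3 was the only tested member with the LEC arrays on top, and Tlr1 and Tlr8 lay below the band on every array.

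Among the surface receptors, Tlr2 was detected on every array. The intensity of its probe (A_51_P452629) was 1670, 1604 and 1422 in VECs and 988, 714 and 898 in LECs. Every LEC array was thus below every VEC array, and the difference was -1.09 (SE 0.12, limma adjusted p = 5.1e-04), or 2.13-fold. Tlr6 (probe A_52_P117393), a partner of TLR2 for diacylated lipoproteins, had intensities of 165, 138 and 172 in VECs and of 89.0, 89.7 and 102 in LECs. It fell by 0.98 on the log2 scale (SE 0.081, limma adjusted p = 1.3e-04). Normexp background correction reduced this difference to -0.67, still past the threshold. Tlr1, the partner for triacylated lipoproteins and the chromosomal neighbor of Tlr6, was detected on no array with either of its 2 probes, whose intensities were 3.03 to 8.82.

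Tlr4, the lipopolysaccharide receptor, was detected with probe A_51_P300806 on all 3 VEC arrays and on 1 of 3 LEC arrays. The intensities were 163, 140 and 206 in VECs, and 18.5, 20.1 and 18 in LECs, of which only the first counted as detected. The groups were separated by a wide gap, with a measured difference of -3.38 (SE 0.14, limma adjusted p = 8.3e-06). Since the LEC signal lay near the lowest level measurable on these arrays, Tlr4 was at least 9.44-fold higher in VECs, from the mean of the VEC arrays against, on each LEC array, the higher of the lowest detected signal and the probe's own signal. Normexp correction of the background shrank the difference to -1.62, which also passed. The second Tlr4 probe (A_55_P2603039) was detected on 2 VEC arrays (18.1 and 44.8, with 17.0 on the remaining one) and on no LEC array (3.20, 6.05 and 4.63), and was therefore not tested. Without the filter on dim probes, it differed by -2.65 (SE 0.45, limma adjusted p = 0.0079).

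Tlr5, the flagellin receptor, was measured by probe A_66_P111367 near background. It was detected on no VEC array (2.5, 2.97 and 2.89) but on LEC 6 and LEC 8 (68.6 and 41.4), whereas LEC 7 read 10.3. It was not tested because 1 LEC array missed the background criterion. With all probes kept, the difference was 3.24 (SE 0.67, limma adjusted p = 0.015).

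**Figure D2:**
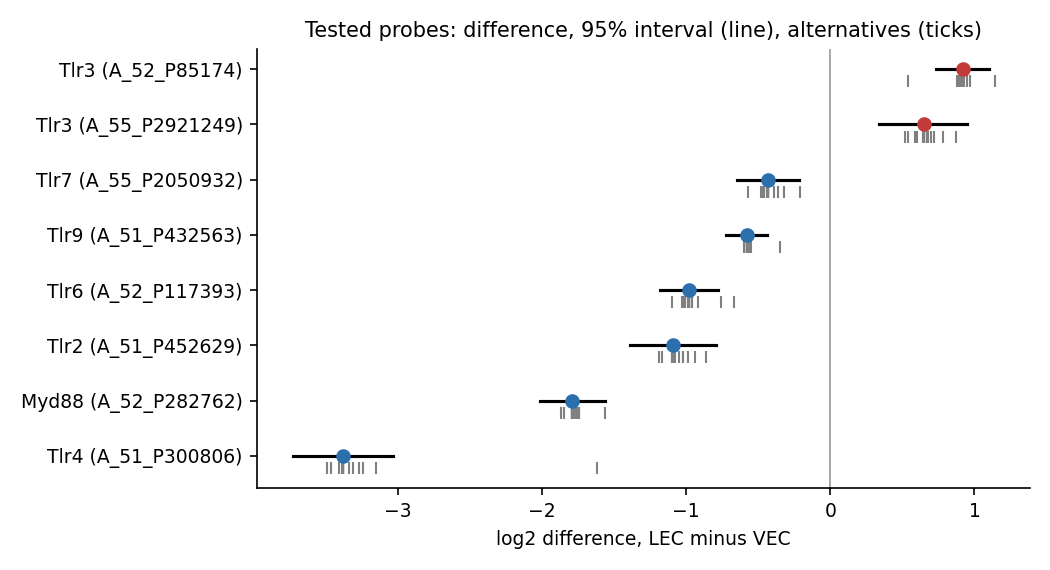
Difference between LECs and VECs in log2 signal for each member probe tested, as points (red higher, blue lower in LECs) with 95% confidence intervals from limma as lines. The ticks under each point are the values under the processing alternatives, and the vertical line marks no difference. Tlr4 stood at -3.38 and Myd88 at -1.79, and the 2 Tlr3 probes lay to the right of the line at 0.65 and 0.92.

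Among the endosomal receptors, Tlr3, which binds double-stranded RNA, was higher in LECs with both of its probes. Probe A_55_P2921249, which stood for the gene, had intensities of 238, 244 and 282 in VECs and of 447, 505 and 447 in LECs, a difference of 0.65 (SE 0.12, limma adjusted p = 0.0048). Probe A_52_P85174 gave 90.1, 85.0 and 106 in VECs and 215, 180 and 226 in LECs, a difference of 0.92 (SE 0.076, limma adjusted p = 1.3e-04). No LEC value of either probe overlapped a VEC value. LEC 7 and 8 lay in another row of the slide than the remaining arrays. When this row was fitted as a block, the difference came from LEC 6 alone against the VEC arrays. The former probe then gave 0.54 and was not called, and the latter gave 0.93.

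Tlr9, which binds unmethylated CpG DNA, had intensities (probe A_51_P432563) of 1886, 1714 and 1871 in VECs and 1485, 1310 and 1497 in LECs. The replicates lay close together, and the difference was -0.58 (SE 0.057, limma adjusted p = 2.7e-04), or 1.49-fold. Tlr7, a receptor for single-stranded RNA, showed the smallest of the called differences among the members. Its detected probe (A_55_P2050932) read 203, 198 and 202 in VECs and 164, 170 and 191 in LECs, a difference of -0.43 (SE 0.087, limma adjusted p = 0.0058). Without scaling between arrays it was -0.21 (limma adjusted p = 0.14) and no longer called. The other 2 probes of Tlr7 and the probe of its chromosomal neighbor Tlr8 were detected on no array, with intensities of 3.00 to 6.23. Thus in each of the neighboring pairs Tlr1 and Tlr6 on chromosome 5 and Tlr7 and Tlr8 on chromosome X, 1 gene was tested and called lower in LECs and the other was not detected.

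Myd88, the adaptor of all these receptors but TLR3 and of the interleukin-1 receptor family, was detected on all arrays. The intensity of its probe (A_52_P282762) was 5810, 5577 and 5430 in VECs and 1862, 1899 and 1948 in LECs. The populations were far apart relative to the spread within them, with normalized log2 signals of 3.98 ± 0.11 (SD, n = 3) and 2.19 ± 0.11 (SD, n = 3). The difference was -1.79 (SE 0.092, 95% confidence interval -2.01 to -1.56, limma adjusted p = 1.8e-05), or 3.45-fold, and it stayed between -1.87 and -1.56 under all 20 alternatives. Of its chromosomal neighbors, Oxsr1 was also lower in LECs (-0.80, limma adjusted p = 9.4e-04) and Acaa1a was higher (0.24, limma adjusted p = 0.022).

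Of the other adaptors, all 3 that were tested were lower in LECs, against 32.0% of all named genes tested. Of the 3, Sarm1 entered the test only through the VEC arrays. Ticam1, which encodes the TLR3 and TLR4 adaptor TRIF, read 405, 368 and 434 in VECs and 178, 156 and 182 in LECs, a difference of -1.45 (SE 0.056, limma adjusted p = 6.0e-06). The direction was opposite to that of its receptor Tlr3 and the same as that of Tlr4. Tirap, the sorting adaptor for TLR2 and TLR4, differed by -0.41 (limma adjusted p = 0.0032), and by -0.18 (limma adjusted p = 0.29) without scaling. Sarm1, a TIR-domain protein that restrains TRIF, was detected on no LEC array, and its level was at least 1.41-fold higher in VECs (limma adjusted p = 6.7e-04). Its call was lost when signals were raised to the lowest detected level (-0.50, limma adjusted p = 0.18). Ticam2, the bridging adaptor TRAM, was detected on no array, and Pik3ap1, a B cell adaptor for phosphoinositide kinases, was detected on 2 of 3 VEC arrays and was not tested.

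**Figure D3:**
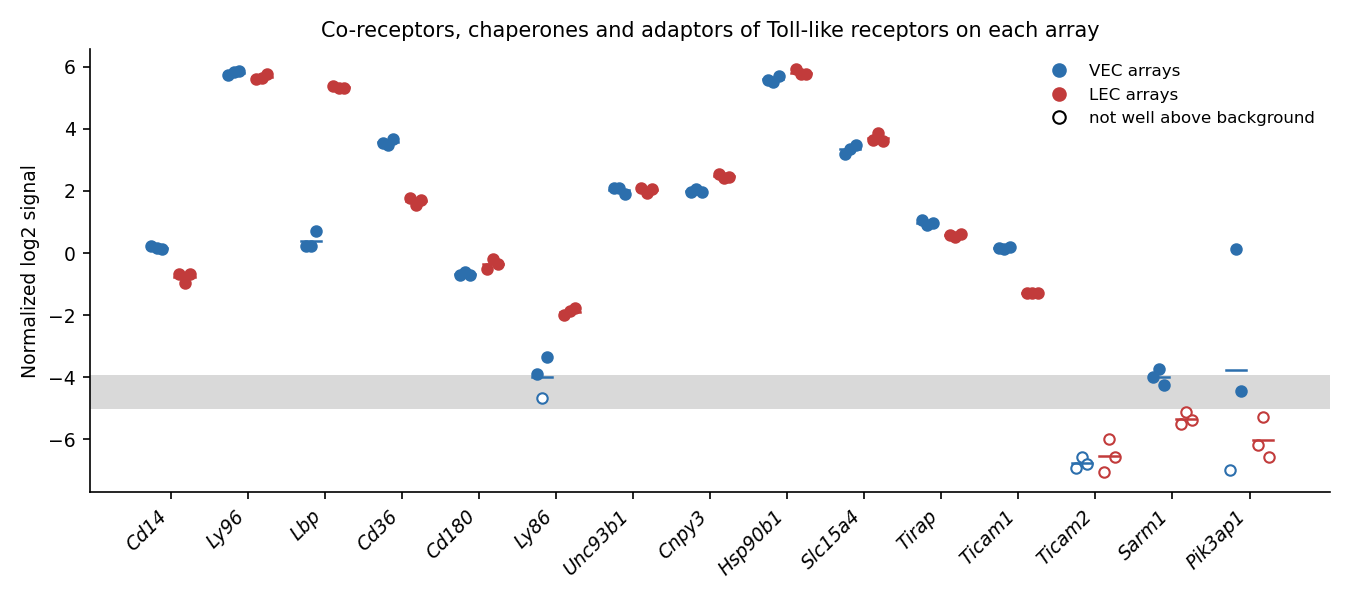
Normalized log2 signal of co-receptors, chaperones and adaptors on each array (vertical axis, relative to the array's 75th percentile), with VEC arrays in blue, LEC arrays in red, lines at the group means, open points where a probe was not detected and a gray band over the lowest detected signals of the 6 arrays. Lbp had group means of 0.39 in VECs and 5.33 in LECs, whereas Cd14, Cd36 and Ticam1 had the LEC arrays below the VEC arrays.

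The proteins that load, fold or transport the receptors moved in both directions. Of 10 such genes, all of them tested, LECs had the higher level of 5 and the lower level of 2, and 3 missed the threshold. The number higher was 3 without VEC 2, without VEC 3 or without LEC 7. Lbp, the lipopolysaccharide binding protein, had intensities of 421, 390 and 616 in VECs and of 18001, 15142 and 17442 in LECs. LECs were thus 30.8-fold higher (difference 4.95, SE 0.15, limma adjusted p = 2.2e-06). Cd14, which takes lipopolysaccharide from LBP and passes it on to TLR4 and MD-2, was in contrast lower in LECs, with 268, 194 and 275 against 429, 369 and 409 in VECs (difference -0.96, SE 0.10, limma adjusted p = 3.7e-04). Ly96, which encodes MD-2, gave probes that disagreed. The one with the higher mean differed by -0.13 (limma adjusted p = 0.16) and the other by 0.75 (limma adjusted p = 5.4e-04). Cd36, a scavenger receptor that assists TLR2 and TLR6, had 4181, 3677 and 4797 in VECs and 1460, 1110 and 1428 in LECs, a 3.71-fold difference (-1.89, SE 0.091, limma adjusted p = 1.4e-05).

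Cd180, a TLR4 homolog that lacks a signaling domain, differed by 0.31 (limma adjusted p = 0.028) and passed the threshold under 13 of 20 alternatives. Its partner Ly86, or MD-1, was detected on 2 of 3 VEC arrays and all LEC arrays, with a LEC level at least 4.15-fold that of VECs (adjusted p = 0.0018 from limma). Its difference was 1.01 under normexp. Among the endosomal factors, Unc93b1, the chaperone that carries the nucleic acid receptors to endosomes, gave 0.01 (SE 0.086, limma adjusted p = 0.96). Cnpy3, a folding cofactor of several receptors, was higher in LECs by 0.46 (limma adjusted p = 0.0017). Hsp90b1, the endoplasmic reticulum chaperone gp96, gave 0.21 (limma adjusted p = 0.059). Slc15a4, an endosomal transporter needed for TLR7 and TLR9 signaling, differed by 0.36 (limma adjusted p = 0.026) and passed under 13 of 20 alternatives, while its second probe gave 1.26 (limma adjusted p = 0.21). All 5 genes of the endosomal proteases that cleave these receptors, Ctsb, Ctsk, Ctsl, Ctss and Lgmn, were higher in LECs, with a median of 1.03, and 3 were called with the slide row as a block. Ctss differed by 2.06 (limma adjusted p = 0.0075, or 0.071 with the slide row as a block), Lgmn by 1.62 (limma adjusted p = 2.4e-05), Ctsb by 1.03 (limma adjusted p = 5.1e-05) and Ctsk by 0.91 (limma adjusted p = 3.6e-04).

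Of the remaining receptors, which are present in mice, Tlr12 was dim and higher in LECs. Its intensities were 14.1, 7.37 and 16.6 in VECs, where 2 of 3 arrays detected it, and 42.2, 52.3 and 76.8 in LECs. The difference was 1.98 (limma adjusted p = 0.0024), while normexp on the background gave 0.59, which also passed. Tlr13, a receptor for bacterial ribosomal RNA, gave 0.26 (limma adjusted p = 0.080), and Tlr11 was detected on 1 VEC array and no LEC array.

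Signaling genes downstream of the adaptors split in direction. Of 24 kinases, ubiquitin ligases and transcription factors, 22 were tested, which comprised 7 higher and 6 lower in LECs and 9 short of the threshold, with a median of -0.11. The number higher was 4 without LEC 8. It also fell with the slide row as a block, which leaves LEC 6 alone against the VEC arrays. Ikbke, the inducible kinase of IRF3 and IRF7, was detected in LECs alone, with a level at least 8.66-fold above that of VECs (limma adjusted p = 2.4e-04). Irf8 (0.61, limma adjusted p = 0.018), Tab1 (0.48, limma adjusted p = 0.0033) and Irf3 (0.37, limma adjusted p = 0.0031) were also higher, of which Irf8 had an adjusted p of 0.19 with the slide row as a block. Rela, the p65 subunit of NF-κB, was lower in LECs by a difference of -1.04 (limma adjusted p = 8.8e-05), and Traf3 by -0.79 (limma adjusted p = 5.4e-04). Ikbkb (-0.43, limma adjusted p = 0.0071) and Irak2 (-0.41, limma adjusted p = 0.018) were lower as well, but neither passed without scaling, where both had an adjusted p of 0.25. A second Irak2 probe gave -0.89 (limma adjusted p = 9.5e-04).

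Inhibitors of the pathway were mostly lower in LECs. Of 12 genes tested, 8 were lower, 2 were higher and 2 did not pass, with a median of -0.49. The shares over all named genes tested were 32.0% lower and 34.9% higher. Tnfaip3, the deubiquitinase A20, read 14761, 14010 and 12473 in VECs and 2680, 1995 and 2635 in LECs, a 6.65-fold difference (-2.73, limma adjusted p = 9.4e-06). Atf3, a repressor of NF-κB target genes, differed by -2.33 (limma adjusted p = 1.7e-05), Nfkbia by -1.30 (limma adjusted p = 3.3e-04) and Tnip1 by -0.87 (limma adjusted p = 5.1e-04). Cyld, another deubiquitinase, was higher in LECs with all 3 of its probes, by 1.31 for the one that stood for it (limma adjusted p = 2.3e-05) and by 0.81 and 0.32 for the others, and Usp25 was higher by 0.35 (limma adjusted p = 0.0046). Tnfaip3, Atf3, Nfkbia and Dusp1 are also known as early genes that respond to tissue digestion, and the part of the digestion in these differences was not tested. Without scaling, 5 inhibitors and 2 signaling genes were lower.

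**Figure D4:**
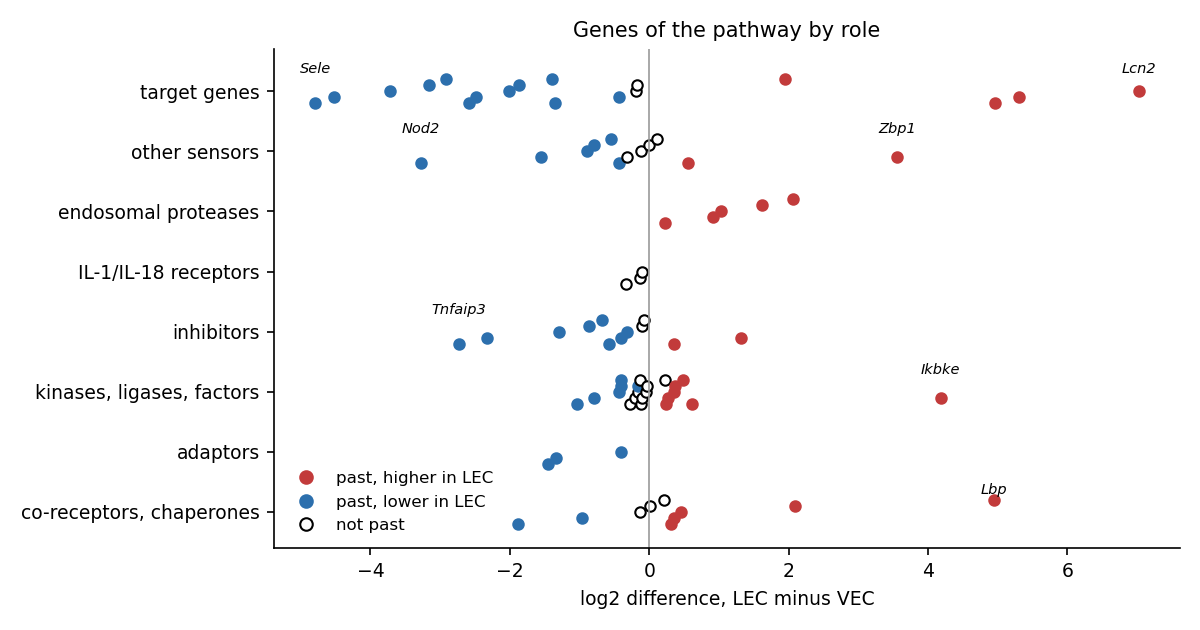
Difference between LECs and VECs in log2 signal (horizontal axis) for the tested genes of each pathway list (rows), 1 point per gene, red where called higher in LECs, blue where called lower and open where not called. The target genes ran from Sele at -4.79 to Lcn2 at 7.02, whereas all 5 endosomal proteases lay to the right of 0.

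The interleukin-1 receptor family also uses MYD88. Of 8 genes, 3 were tested and none passed. Il1r1, the signaling receptor for interleukin-1, differed by -0.10 (limma adjusted p = 0.47), Il1rap by -0.13 (limma adjusted p = 0.20) and Il1r2 by -0.34 (limma adjusted p = 0.13). A second Il1rap probe, detected on 1 of 3 LEC arrays, gave -0.45 (limma adjusted p = 0.053). Of the probes that stood for these genes, 0 of 3 reached an unadjusted limma p under 0.05 and 0 of 3 passed by the methods' one-way test, whereas 1 gene was called lower in LECs with normexp and 1 without VEC 2. Il18r1 was detected on 1 VEC array, and Il1rn, Il18rap, Il1rl1 and Il1rl2 on no array.

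Other innate sensors had 12 of 15 genes tested, of which 6 were lower in LECs, 2 were higher and 4 did not pass. Nod2, the muramyl dipeptide sensor, read 1329, 1285 and 1195 in VECs and 157, 146 and 157 in LECs, a 9.68-fold difference (-3.28, limma adjusted p = 1.8e-06). Cgas, a DNA sensor, differed by -1.56 (limma adjusted p = 2.2e-04), Nod1 by -0.90 (limma adjusted p = 4.2e-04) and Pycard, the inflammasome adaptor, by -0.79 (limma adjusted p = 2.8e-04). Zbp1, a sensor of Z-form nucleic acids, exceeded its VEC level 11.8-fold in LECs (limma adjusted p = 3.8e-06), and Mavs, the adaptor of RNA helicases, was 1.46-fold higher (limma adjusted p = 0.0015).

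Genes known to be induced by the pathway were divided. Of 20, 18 were tested, with 12 lower and 4 higher in LECs, 2 that did not pass and a median of -1.64. Il6 read 8716, 7974 and 7800 in VECs and 948, 610 and 652 in LECs, a 13.2-fold difference (-3.72, limma adjusted p = 9.4e-06). The adhesion molecules Sele (27.7-fold, limma adjusted p = 6.7e-06) and Vcam1 (8.97-fold, limma adjusted p = 1.1e-06) and the growth factor Csf3 (23-fold, limma adjusted p = 4.4e-05) were lower in LECs as well. In contrast, Lcn2, an iron-scavenging lipocalin, exceeded its VEC level 130-fold in LECs (limma adjusted p = 4.7e-07). Its VEC intensities were 204, 203 and 229, and its LEC intensities 30673, 32639 and 33231. The chemokine Ccl2 rose 39.7-fold in LECs (limma adjusted p = 2.1e-04), Acod1 at least 29.7-fold (limma adjusted p = 2.7e-05), with a difference of 2.95 under normexp, and Il1b 3.86-fold (limma adjusted p = 0.0063, or 0.052 with the slide row as a block). Over all these pathway lists, 87 of 102 genes were tested, with 26 higher and 37 lower in LECs and 24 not called. Thus 72.4% were called against 66.9% of all named genes, of which 34.9% were higher and 32.0% lower in LECs. The count of each list is to be read beside these shares. Ikbke, Sarm1, Saa3, Ly86, Tlr12, Acod1 and Ptgs2 entered the test only through the brighter group, as Tlr4 did. Counts and p-values of these lists therefore include genes whose selection favored a difference, and the same filter applied to all named genes.

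Toll-like receptors are abundant in leukocytes, and transcripts of other cells that could be present in the sorted populations were therefore summed. Of 16 myeloid markers, 14 were tested, and 10 were higher in LECs, 2 lower and 2 did not pass. Their summed signal was 79.2 to 84.6 times the array's 75th percentile in VECs and 72.2 to 77.9 times in LECs. Most of it came from the Itgam probe, and without it the sum was 4.82 to 5.23 in VECs and 7.91 to 8.79 in LECs. Cybb was detected on no array. Ptprc, which encodes the CD45 used to exclude leukocytes, was detected on 2 of 3 arrays in each group and was not tested. Its intensities were nevertheless 14.6, 5.68 and 18.6 in VECs and 30.5, 23.9 and 37.5 in LECs, without overlap of the normalized signals. Cd68 was lower in LECs (-1.16, limma adjusted p = 7.3e-05), and Csf1r (-0.12) and Itgax (0.61) did not pass. The sum without Itgam moved in the same direction as Tlr3, Ly86 and Il1b and in the opposite direction to Myd88, Tlr2, Tlr4 and Cd14. The protease gene Ctss is itself 1 of the 16 markers and is part of this sum. The part of myeloid cells in these differences was not tested.

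Of 6 B cell and plasmacytoid dendritic cell markers, which are relevant to Tlr7 and Tlr9, 4 were tested, with 1 higher and 2 lower in LECs. Their sum was 322 to 389 in VECs and 299 to 349 in LECs, most of it from Siglech, and 19.6 to 20.5 and 36.2 to 42.7 without it, while Ms4a1 was detected on no array. Of 4 T cell markers, 3 were tested, with 2 higher and 1 lower in LECs, and their sum was 1.34 to 1.91 in VECs and 5.50 to 6.74 in LECs. This sum was carried in LECs by Cd2, with intensities of 34.0, 25.7 and 27.0 in VECs and 2372, 1629 and 1994 in LECs. Cd3d was dim and also higher in LECs (1.15, limma adjusted p = 7.1e-04), whereas Cd3e was lower in LECs and Cd3g was detected on no array. Of 9 epithelial markers, 6 were tested, with 2 lower in LECs, and the sum was 3.53 to 38.4 in VECs and 4.86 to 52.1 in LECs, high on VEC 4 and LEC 7 through Defa24. Of 9 fibroblast and mural cell markers, 7 were tested, with 3 higher and 2 lower, and the sum was 23.3 to 30.3 in VECs and 18.4 to 21.8 in LECs, but 2.09 to 3.20 and 2.74 to 3.78 without Acta2. The 4 pan-endothelial markers were all lower in LECs, at 219 to 254 in VECs and 123 to 140 in LECs. The part of these cells in the differences of the receptors was not tested.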

How the data were processed

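RNA of 3 VEC and 3 LEC samples was hybridized to one-color Agilent arrays. The authors deposited spot intensities from Agilent Feature Extraction 12.0.3.1, background-subtracted and not scaled between arrays, and log2 values in a separate table, which equaled the log2 intensity minus a constant per array. That deposited log2 table served as an alternative input. Here, log2 intensities had the 75th percentile of each array subtracted and outlier spots (97 to 122 per array) set missing. Detected means marked well above background by the scanner software. The lowest detected intensity was 12.1 to 25.1, which limits dim probes, and the 3 arrays per group limit the precision.

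Of 56605 probes other than controls, 33777 were detected on every array of one group or of both. They were tested two-sided with lmFit and eBayes of limma 3.58.1 (R 4.3.3), with Benjamini-Hochberg adjustment over all of them. The fit was tested on simulated data. Probes were named through RefSeq accessions for 58.3% of probes, with GRCm38.p6 used for names, neighbors and promoter windows only. Where several probes of a gene were tested, the one with the highest mean stood for it. Differences were taken within a probe. The choice of a gene's probe and the marker sums set signals of different probes side by side, which can differ in how strongly they bind, so the sums are descriptive. A bound stands against, on each array of the dimmer group, the higher of the lowest detected signal and the probe's own signal.

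Members and lists were chosen with earlier results of these data known. All members, co-receptors, adaptors and other Toll-like receptors were named, and of the other lists up to 4 called genes per direction with the largest differences. Dusp1, Ctsl, the interleukin-1 family and the markers were named in addition, after their values were seen. Alternatives were other scalings and filters, an intensity floor, no removal of outlier spots, an intensity trend in eBayes, normexp on median signals (mean signals were not among the columns used here), the methods' one-way test, the deposited table, the slide row as a block, the mean of a gene's probes, a stricter threshold of 0.01 and each replicate left out. The marker sums without the brightest gene were added after seeing the data.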

Additional observations from a re-analysis of the deposited data

How the results depend on the processing

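Calls of the members depended little on the processing. Of the counts of members, pathway genes and all probes, recomputed under each alternative, 160 stayed within 1.5 times the reported count and 4 did not. Without scaling between arrays, 12922 probes were higher and 6916 lower in LECs, against 10537 and 11066, and the median difference of all probes tested rose from -0.03 to 0.20. The number of member genes higher in LECs was 2 without the filter on dim probes, where Tlr5 joined Tlr3, and 0 when slide row was a block. With that block, 1 member probe was higher. Leaving out single arrays changed no member's call. Among the single probes and lists, 8 values reversed, all of them of genes that were not called. Ly96 gave 0.02 with quantile normalization, 0.09 without scaling and 0.31 as the mean of its probes. Unc93b1 gave -0.004 with quantile normalization, -0.0007 with median scaling, -0.02 without LEC 6 or LEC 8, and -0.06 to 0.06 with single arrays left out, the lowest without VEC 4. No paired analysis was possible because the groups share no replicate numbers. Dim probes, such as that of Tlr4 in LECs, lie near the lowest detected signal. Normexp on median signals adds an offset of 50, which by construction shrinks log2 differences of dim probes, and gave -1.62 for Tlr4, -0.44 for Sarm1, 0.59 for Tlr12, 1.01 for Ly86, 1.37 for Ikbke, 2.95 for Acod1 and 1.10 for Il1b.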
